A study of Homo sapiens with 42 samples.

Results

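Long intergenic noncoding RNAs with a numbered LINC symbol were followed in 7 established lines of human acute lymphoblastic leukaemia (ALL). A row of the count tables was taken as a member when its symbol was LINC followed by 5 digits and when it held at least 30 counts in 3 or more of the 42 libraries. This gave 196 members, out of 962 LINC symbols and 50648 symbols in all. The same count floor was passed by 17312 symbols of any kind. The lines were Nalm6, SUPB15, RS411, REH and 697, which are B-lineage lines, and CEM and DND41, which are T-lineage lines. Each line was either given L-asparaginase, an enzyme drug that breaks down extracellular asparagine and some glutamine, at 1 IU/ml for 4 h, or left untreated. Each of the 14 groups held 3 libraries, described by the submitters as independent experiments. All groups grew in RPMI-1640 with serum and glutamine, and each line is 1 established culture, so that lineage is represented by 5 and 2 lines.

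LINC symbols are given to long transcripts that lie between coding genes and for which no protein was known when they were named. Many are transcribed in few cell types, and most have no assigned function. Some act on neighbouring genes in cis, some are precursors of small RNAs, and some were later found to encode small proteins. Asparaginase starves leukaemic cells, and uncharged transfer RNA then activates the kinase GCN2, which favours translation of the transcription factor ATF4 and induces stress genes through elements bound by ATF4 and C/EBP proteins.

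The count floor used the values of all 42 libraries without regard to treatment. It was reached by 158 members in treated libraries alone and also in untreated libraries alone, by 21 members only through treated libraries, by 11 only through untreated libraries, and by 6 only with both. Since 3 columns are 1 group, a member could pass on 1 line alone, and 52 members had 30 counts in no more than 6 libraries while 32 had them in all 42. At the edge, LINC00954 and LINC01504 had 32 counts, and LINC00997 and LINC01431 had 30 counts, in their third-highest library. LINC01037 had 29 counts there, and LINC00347, LINC00365 and LINC00824 had 28, which left them out. Another 291 LINC symbols were at 0 in every library. Members made up between 0.0511% and 0.0902% of the counts of a library.

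Libraries held between 15071221 and 77143333 counts. Levels are given as CPM, counts scaled by the library total times the TMM factor of edgeR. B-lineage marker genes had a median of at least 49.4 CPM in every library of the 5 B-lineage lines, and T-lineage marker genes a median of at least 82.6 CPM in every library of CEM and DND41. In DND41 the summed B-lineage markers reached 676 to 935 CPM after L-asparaginase and 648 to 1060 CPM in untreated cells, while their median was at most 2.08 CPM. The known amino acid response genes DDIT3, TRIB3, CHAC1 and ASNS rose in the mean over lines, by 2.28, 2.37, 2.10 and 1.07 on the log2 scale. At an adjusted p under 0.05 in single-line edgeR tests, DDIT3 rose in every line and TRIB3 in all but Nalm6. CHAC1 rose in all but 697 and DND41, and ASNS in REH, 697 and CEM only. Untreated library A of DND41, RS411, SUPB15 and Nalm6 and untreated library 1 of 697, called the first untreated libraries here, had the lowest share of small-RNA genes of their groups, 3.35% to 7.23%, while the other libraries ranged from 5.77% in treated DND41 A to 17.8%. The treated libraries SUPB15 C, REH A and RS411 B held 240, 17 and 14 genes with 10 or more counts that were at 0 in the other 5 libraries of their line, and the other 39 libraries held 0 to 4. Counts that rest on these libraries are given with and without them.

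Untreated levels were described first, with no test, because the levels themselves entered the choice of members. A member was called line-restricted when at least 80% of the sum of its 7 untreated line means came from 1 line at 1 CPM or more. This held for 24 of 196 members, or 12.2%, against 6.74% of all symbols at the same floor. The restricted members were 6 in SUPB15, 6 in CEM, 4 in RS411, 3 in REH, 2 in 697, 2 in DND41 and 1 in Nalm6. Conversely, only 38 members, or 19.4%, reached 1 CPM in all 7 untreated lines, against 55.8% of symbols at the floor. The median member drew 39.0% of its summed level from its highest line, against 24.0% for the median symbol at the floor. Over all 196 members, restricted ones included, 56 or 28.6% reached 1 CPM in exactly 1 line, against 10.9% of symbols at the floor. In no line was 1 CPM reached by 30 members, or 15.3%, against 9.07%.

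The most abundant restricted members were found in the B-lineage lines. LINC01108 averaged 73.1 ± 1.97 CPM (SD, n = 3) in untreated RS411 and 12.9 ± 2.54 CPM in untreated 697, and at most 0.0539 CPM in the other lines. LINC01139 averaged 28.9 ± 3.91 CPM in SUPB15 and 2.99 ± 1.33 CPM in RS411. LINC00470 was counted in SUPB15 alone, at 2.70 ± 0.537 CPM, with no untreated count elsewhere. LINC00672, which RefSeq now lists as the coding gene LASP1NB, averaged 9.85 ± 1.42 CPM in REH and at most 0.828 CPM elsewhere. In CEM, LINC00885 stood at 9.24 ± 0.789 CPM and held 99.8% of its summed level. LINC01262 at 1.78 ± 0.278 CPM was the restricted member of Nalm6, LINC00578 at 1.52 ± 0.531 CPM one of 697, and LINC01115 at 2.76 ± 0.162 CPM one of DND41.

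Lineage separated few members. All 6 untreated T-lineage libraries lay above all 15 untreated B-lineage libraries for 8 members, or 4.08%, against 3.66% of symbols at the floor. They lay below them for another 8 members, against 3.56%. On the T-lineage side, LINC01550 reached 28.1 ± 4.84 CPM in CEM. Its level was 17.6 ± 2.41 CPM in DND41, and in 697, the highest B-lineage line, 3.25 ± 1.45 CPM. LINC00977 averaged 37.4 ± 0.739 CPM in CEM and 37.6 ± 5.73 CPM in DND41, against 11.7 ± 2.49 CPM in Nalm6, the highest B-lineage line. LINC00152, also called CYTOR, averaged 19.1 ± 0.955 CPM in DND41 and 3.2 ± 0.825 CPM in CEM. On the B-lineage side, LINC00958 averaged 40.8 ± 4.51 CPM in SUPB15 and 40.5 ± 5.66 CPM in REH, which did not differ beyond their spread, and 1.07 CPM or less in the other lines. LINC01021, the p53-induced transcript PURPL, averaged 2.43 ± 0.297 CPM in REH and had no untreated count in CEM or DND41.

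**Figure D1:**
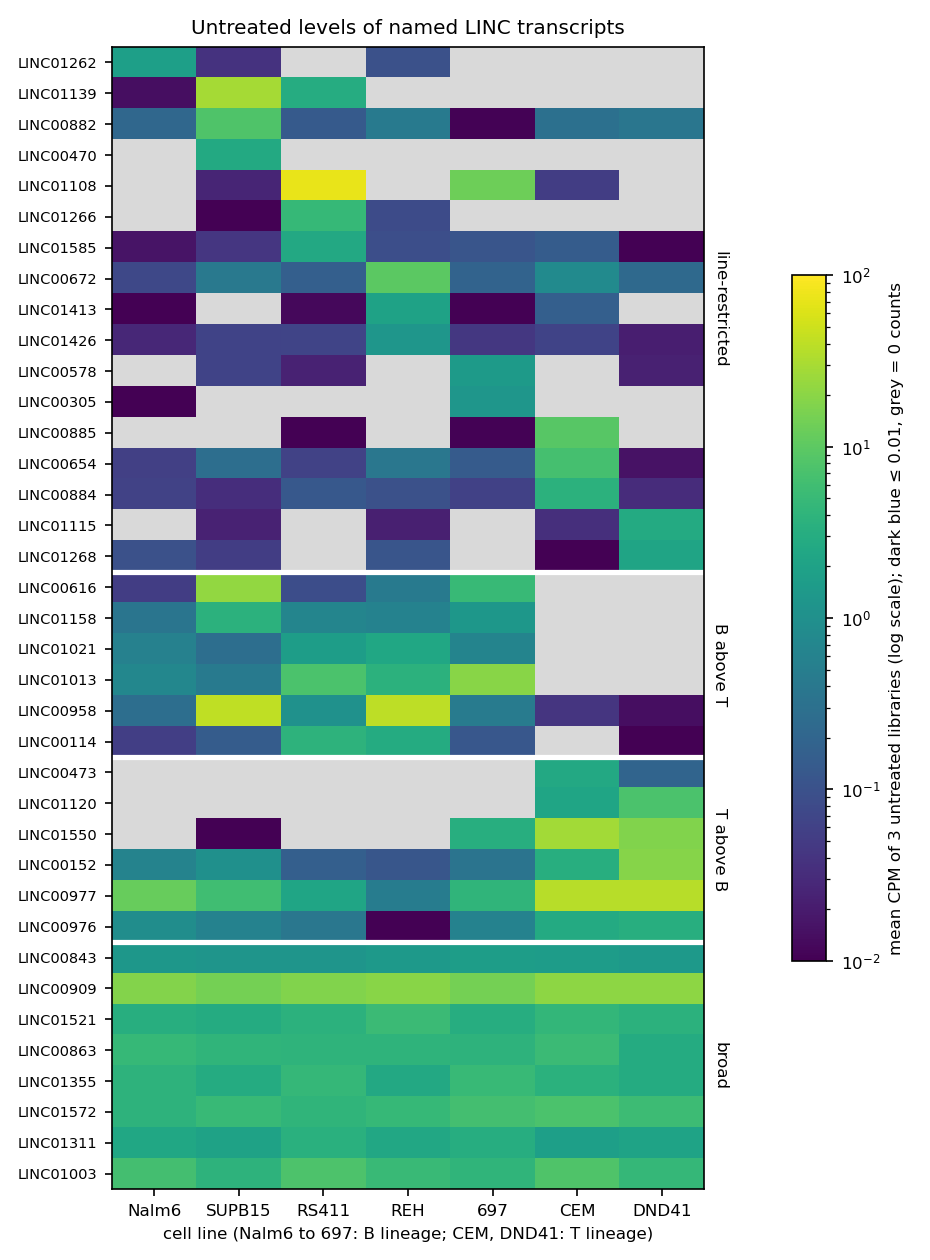
Mean CPM of 3 untreated libraries for named members (rows) in the 7 lines (columns), on a logarithmic colour scale with 0 counts in grey. Line-restricted members are brightest in 1 line, such as LINC00885 at 9.24 CPM in CEM. LINC01108, highest in RS411, also stands at 12.9 CPM in 697, and LINC01139, highest in SUPB15, at 2.99 CPM in RS411. The broad members at the bottom are those with the smallest ratio between lines, such as 1.39 in LINC00843.

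Among the 38 broad members the ratio of the highest to the lowest line mean ran from 1.39 in LINC00843 to 9.63 in LINC01222. LINC00843 lay between 1.2 ± 0.0246 CPM in RS411 and 1.67 ± 0.324 CPM in 697, a ratio of 1.39. LINC00909 lay between 14.4 ± 1.64 CPM in SUPB15 and 20.9 ± 0.59 CPM in CEM, a ratio of 1.46. Breadth was also set beside position in the genome. From GENCODE, 34 members started within 5 kb of the start of a coding gene on the opposite strand, 26 overlapped a coding gene, 130 did neither and 6 were not placed. Of the 34, 10 were broad and 0 were line-restricted, and of the 26 that overlapped a coding gene, 8 were broad and 1 line-restricted. Of the 130, 19 were broad and 21 line-restricted. The median number of lines at 1 CPM was 4.0 for the 34 and also for the 26, and 2.0 for the 130. Such shares by position were not taken over all symbols at the floor. These shares are descriptions of members chosen by level and were not tested.

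The response to L-asparaginase was then compared in each line with edgeR's quasi-likelihood test, and a gene was called at a Benjamini-Hochberg adjusted p under 0.05 over all genes tested in that line. In CEM 32 members were higher and 13 lower out of 137 tested, which is 32.8% against 36.7% of all genes. In SUPB15 12 were higher and 20 lower of 122, or 26.2% against 26.1%. In REH 8 were higher and 12 lower of 128, or 15.6% against 26.5%. In Nalm6 9 were higher and 9 lower of 118, or 15.3% against 20.8%. In DND41 11 were higher and 6 lower of 122, or 13.9% against 26.9%. In RS411 5 were higher and 6 lower of 126, or 8.73% against 12.8%, and in 697 1 was higher and 2 lower of 122, or 2.46% against 2.4%. These shares were not tested against each other, and their order turned in several lines with other settings. Without a filter on low counts, every gene with any count entered, while members still met the count floor, so the shares are of unlike sets. In that setting members stood at 27.5% against 21.6% of all genes in CEM, 17.1% against 15.5% in REH, 15.3% against 13.5% in Nalm6 and 9.6% against 8.67% in RS411. With DESeq2 they stood at 15.6% against 10.9% in 697. In 697 the summed neuronal markers were 168 to 230 CPM after L-asparaginase and 59.7 to 93.4 CPM in untreated cells, with a median marker at 0 CPM in both, and the part of this in the 697 results was not tested.

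By direction, CEM stood out in the counts, with 23.4% of members called higher against 19% of all genes, and 9.49% called lower against 17.7%. Treated CEM libraries held 50805498 to 71523907 counts and untreated CEM libraries 22675155 to 31599379, without overlap. The part of this difference in depth in the CEM rises was not tested. SUPB15 had 9.84% called higher against 12.9%, and 16.4% lower against 13.2%. Rises took 7.63% of members against 8.96% of all genes in Nalm6, 3.97% against 7.58% in RS411, and 0.82% against 1.55% in 697. The median log2 fold change of the tested members lay between -0.14 in REH and 0.13 in CEM, and that of all genes between -0.029 and -0.003. Single libraries weighed on several counts. Without the first untreated library, 697 had 27 members called, 21.3% against 23.1% of all genes, and RS411 had 26, 20.2% against 26.4%. Without treated library B, RS411 had 0 members called against 2.63% of all genes, and without treated library C, SUPB15 had 13, 9.77% against 13.8%. With the replicate letter as a block, REH had 39 members called, 30.5% against 43.0% of all genes, and DND41 had 36, 29.5% against 39.9%. Over single left-out libraries the count was 0 to 27 in 697, 0 to 26 in RS411, 12 to 40 in SUPB15 and 4 to 25 in DND41.

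**Figure D2:**
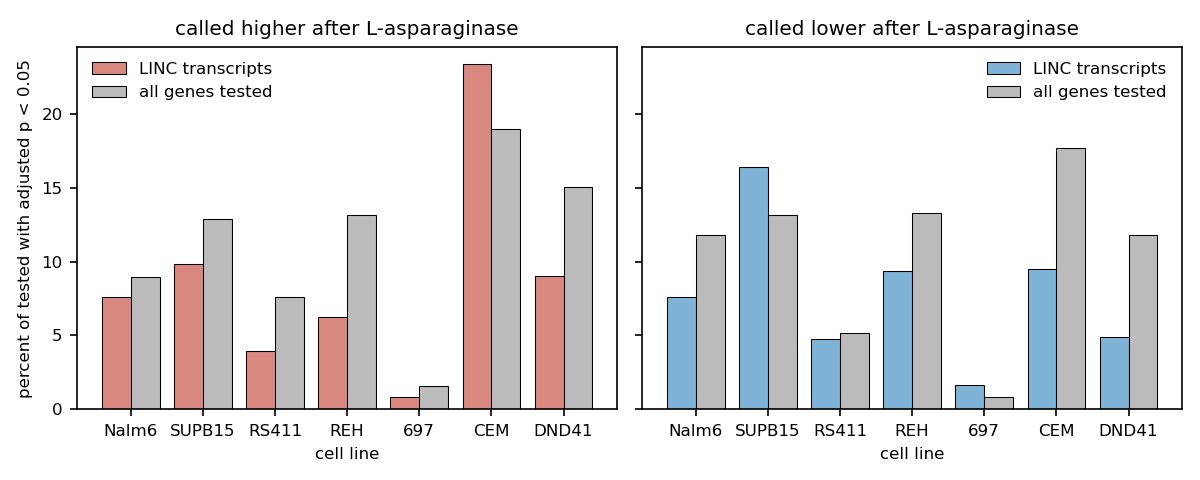
Percent of tested LINC transcripts (left bar of each pair) and of all tested genes (right bar, grey) called higher or lower after L-asparaginase in each line at an adjusted p under 0.05. Members exceed all genes among rises in CEM, 23.4% against 19%, and among falls in SUPB15, 16.4% against 13.2%, and in 697, 1.64% against 0.849%.

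Among the 119 members tested in at least 4 lines, 3 were called higher in 4 or more lines, which compares with 6.43% of all genes so tested, and 3 were called lower in 4 or more lines, which compares with 4.96%. The 3 rises were LINC00638, LINC00662 and LINC01578, and the 3 falls were LINC00324, LINC00689 and LINC01237. All 6 also met this count with DESeq2, with the replicate block and without the first untreated libraries, where 12, 8 and 14 members met it. Without the treated libraries SUPB15 C, REH A and RS411 B, 3 members met it, and over single left-out libraries 3 to 9.

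The promoters of these 6 members are shown because they carry the responses that most lines shared. Sequences run from 250 bases before to 50 bases after the RefSeq start on GRCh38.p14, 5′ to 3′ on the strand of the transcript. Capitals would mark the letters TGATGNAA, the core of the C/EBP-ATF response element, on either strand, and none of the 6 holds them.
LINC00638 (chr14:104820951-104821250, plus strand): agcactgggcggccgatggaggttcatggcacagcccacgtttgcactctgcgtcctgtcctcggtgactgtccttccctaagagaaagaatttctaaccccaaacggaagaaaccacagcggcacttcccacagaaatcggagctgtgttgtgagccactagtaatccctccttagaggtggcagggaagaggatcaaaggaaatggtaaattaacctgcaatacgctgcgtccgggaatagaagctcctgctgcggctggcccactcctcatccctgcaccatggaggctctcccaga
LINC00662 (chr19:27793891-27794190, minus strand): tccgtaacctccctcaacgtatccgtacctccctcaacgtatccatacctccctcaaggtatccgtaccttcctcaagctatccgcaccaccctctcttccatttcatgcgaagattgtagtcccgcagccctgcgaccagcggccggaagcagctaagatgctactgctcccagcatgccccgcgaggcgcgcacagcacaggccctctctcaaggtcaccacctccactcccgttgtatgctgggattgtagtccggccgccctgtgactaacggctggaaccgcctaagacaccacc
LINC01578 (chr15:92882593-92882892, plus strand): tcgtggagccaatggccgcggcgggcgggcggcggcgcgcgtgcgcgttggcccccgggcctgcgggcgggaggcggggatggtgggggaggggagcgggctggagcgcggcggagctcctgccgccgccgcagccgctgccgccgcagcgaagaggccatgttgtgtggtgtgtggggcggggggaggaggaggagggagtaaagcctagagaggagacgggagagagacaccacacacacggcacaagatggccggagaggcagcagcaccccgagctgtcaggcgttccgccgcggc
LINC00324 (chr17:8223994-8224293, minus strand): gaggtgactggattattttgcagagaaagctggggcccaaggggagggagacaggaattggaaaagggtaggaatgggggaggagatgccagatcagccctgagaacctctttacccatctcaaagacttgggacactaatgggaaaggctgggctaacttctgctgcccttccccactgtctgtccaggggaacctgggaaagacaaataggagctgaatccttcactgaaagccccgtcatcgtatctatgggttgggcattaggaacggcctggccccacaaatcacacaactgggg
LINC00689 (chr7:159008104-159008403, plus strand): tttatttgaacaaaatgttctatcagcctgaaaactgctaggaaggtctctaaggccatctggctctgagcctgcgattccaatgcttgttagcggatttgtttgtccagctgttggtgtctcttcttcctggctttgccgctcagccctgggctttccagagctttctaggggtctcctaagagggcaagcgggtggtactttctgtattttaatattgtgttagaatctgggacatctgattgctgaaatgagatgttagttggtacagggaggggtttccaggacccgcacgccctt
LINC01237 (chr2:241881113-241881412, plus strand): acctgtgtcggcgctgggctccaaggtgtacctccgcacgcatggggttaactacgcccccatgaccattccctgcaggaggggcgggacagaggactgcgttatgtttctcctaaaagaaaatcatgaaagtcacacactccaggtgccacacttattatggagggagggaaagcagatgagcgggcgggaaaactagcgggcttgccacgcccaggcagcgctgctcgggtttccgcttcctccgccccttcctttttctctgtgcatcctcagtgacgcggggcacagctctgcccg
The promoter of LINC01578 was the richest in G and C of the 6, at 74.7%, and that of LINC00689 the poorest, at 48.0%.

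LINC00638, now VESTAR in RefSeq, had the largest rise of the members shared by 4 or more lines. In SUPB15 it had 0.548, 0.592 and 0.586 CPM after L-asparaginase, against 0.0874, 0.116 and 0.128 CPM in untreated cells, a log2 fold change of 2.31 ± 0.36 (SE, adjusted p = 0.0027). In Nalm6 it had 0.824, 0.838 and 0.653 CPM, against 0.195, 0.164 and 0.151 CPM untreated (log2 fold change 2.22 ± 0.35, adjusted p = 0.0022). In CEM it had 1.46, 1.36 and 1.52 CPM, against 0.748, 0.306 and 0.371 CPM untreated (1.65 ± 0.31, adjusted p = 0.0015). The treated and untreated libraries did not overlap in any of these 3 lines. It also rose in REH by 1.5 ± 0.35 (adjusted p = 0.0097) and in DND41 by 1.33 ± 0.31 (adjusted p = 0.013), the last of which was not called without treated library C (adjusted p = 0.071). In 697 it had 1.88, 2.15 and 2.28 CPM treated, against 0.0965, 0.742 and 1.91 CPM untreated, which overlap, and the log2 fold change of 1.16 ± 0.75 was not called (adjusted p = 0.42). In RS411 it was 1.07 ± 0.33 (adjusted p = 0.07). LINC00638 was called higher in 6 lines with the replicate block, with DESeq2 and without the first untreated libraries. The counts are small, 14 to 39 treated and 3 to 7 untreated in SUPB15. Over the 7 lines the mean log2 fold change was 1.59 ± 0.17 in a joint edgeR model (adjusted p = 2.5e-09), higher in 7 of 7 lines.

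LINC00662 was higher by 0.77 ± 0.057 on the log2 scale in the mean of the lines (adjusted p = 2.2e-13), and lines differed in its response (interaction adjusted p = 1.5e-05). In 697 it had 33.8, 42.4 and 35.5 CPM treated, against 11.7, 10.9 and 10.7 CPM untreated, a 3.32-fold rise (log2 fold change 1.73 ± 0.19, adjusted p = 0.013). In REH it had 25.5, 35.3 and 40.3 CPM treated, against 14.9, 15.2 and 19.4 CPM untreated (1.07 ± 0.16, adjusted p = 0.001). Treated and untreated libraries were apart in both lines. It rose by 0.90 ± 0.11 in CEM (adjusted p = 7.3e-05), by 0.68 ± 0.17 in RS411 (adjusted p = 0.034) and by 0.67 ± 0.17 in SUPB15 (adjusted p = 0.018). In Nalm6 it averaged 10.7 ± 0.454 CPM treated and 9.4 ± 0.296 CPM untreated, and the log2 fold change of 0.22 ± 0.13 was not called (adjusted p = 0.27), nor was that of 0.22 ± 0.16 in DND41 (adjusted p = 0.34). The call in 697 was lost on leaving out any 1 of 5 of its 6 libraries, all but untreated 1 (adjusted p 0.056 to 0.13), and under the replicate block (0.07), with a log2 fold change of 1.62 to 1.79. Those in RS411 and SUPB15 were lost on leaving out any 1 library other than untreated A in RS411 (0.093 to 0.11), and untreated B or any treated library in SUPB15 (0.053 to 0.078).

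LINC01578, now CHASERR in RefSeq, rose by 0.57 ± 0.053 in the mean of the lines (adjusted p = 5.3e-11). In DND41 it had 60.1, 81.8 and 71.9 CPM treated, against 28.6, 40.2 and 38.7 CPM untreated (log2 fold change 1.02 ± 0.16, adjusted p = 0.0021). In SUPB15 it had 23.8, 30.5 and 34.2 CPM treated, against 14.4, 16.9 and 16.2 CPM untreated (0.88 ± 0.16, adjusted p = 0.0048). Groups were apart in both. It rose by 0.67 ± 0.10 in RS411 (adjusted p = 0.008) and by 0.64 ± 0.089 in CEM (adjusted p = 0.00022). The RS411 call was lost without treated B (adjusted p = 0.068) or treated C (adjusted p = 0.063). In Nalm6, REH and 697 the log2 fold changes were 0.25 ± 0.13, 0.28 ± 0.13 and 0.38 ± 0.17 and were not called, and the responses of the lines differed (interaction adjusted p = 0.011).

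LINC00324 was lower in all 7 lines, by 0.84 ± 0.087 on the log2 scale in the mean (log2 fold change -0.84, adjusted p = 5.5e-10). The widest gap was in 697, with 1.71, 1.76 and 1.85 CPM treated, against 8.04, 6.16 and 7.85 CPM untreated, a 4.18-fold fall (-2.07 ± 0.25, adjusted p = 0.016). In DND41 it had 2.75, 2.73 and 2.67 CPM treated, against 4.46, 4.04 and 4.35 CPM untreated (-0.63 ± 0.20, adjusted p = 0.04). It fell by 0.72 ± 0.21 in Nalm6 (adjusted p = 0.033) and by 0.75 ± 0.23 in CEM (adjusted p = 0.023), where 1 treated and 1 untreated library overlapped, at 4.66 and 4.58 CPM. The log2 fold changes of -0.71 ± 0.24 in REH (adjusted p = 0.051), -0.54 ± 0.27 in RS411 and -0.42 ± 0.19 in SUPB15 were not called. Each of the 4 calls was lost without at least 3 of the line's libraries left out singly. These were all but untreated 1 in 697 (adjusted p 0.056 to 0.15) and all but untreated A in DND41 (0.057 to 0.16). They were untreated B or C and treated A or B in Nalm6 (0.063 to 0.13), and untreated B and treated A or B in CEM (0.071 to 0.09). The mean over lines kept its call in all 48 alternatives.

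LINC00689 reached the level of abundant transcripts in REH, with 93.7, 104 and 94.0 CPM treated, against 127, 145 and 129 CPM untreated (log2 fold change -0.42 ± 0.097, adjusted p = 0.0096). In RS411 it had 21.9, 20.7 and 22.5 CPM treated, against 32.5, 32.6 and 33.6 CPM untreated (-0.59 ± 0.11, adjusted p = 0.013). Neither line showed overlap between its groups. It also fell by 1.29 ± 0.29 in SUPB15 (adjusted p = 0.013) and by 0.96 ± 0.29 in Nalm6 (adjusted p = 0.04), and it was nearly uncounted in DND41. Its mean over lines was not called (-0.52 ± 0.24, adjusted p = 0.094). The gene overlaps VIPR2, and no source used here says whether counting was by strand, so reads of the 2 genes may be mixed. Calls were lost in REH without untreated B (adjusted p = 0.061) or treated C (0.057), and in RS411 without treated B (0.091) or treated C (0.084). In Nalm6 they were lost without untreated A (-0.66, adjusted p = 0.079), untreated B (0.066), treated B (0.13) or treated C (0.14).

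LINC01237 had 2.75, 2.57 and 2.69 CPM in treated CEM, against 4.49, 4.31 and 4.41 CPM in untreated CEM, with groups far apart (log2 fold change -0.71 ± 0.15, adjusted p = 0.0027). In REH it had 2.18, 1.87 and 2.38 CPM treated, against 4.20, 4.26 and 3.92 CPM untreated (-0.91 ± 0.21, adjusted p = 0.0088). It fell by 0.86 ± 0.22 in Nalm6 (adjusted p = 0.021) and by 1.45 ± 0.43 in DND41 (adjusted p = 0.034). In 697 the log2 fold change was 0.22 ± 0.42 and in SUPB15 -0.09 ± 0.29, neither called. Its response differed between lines (interaction adjusted p = 0.043). The DND41 call was lost without any 1 library other than untreated A (adjusted p 0.092 to 0.13), and the Nalm6 call without untreated B or C or treated A or B (0.061 to 0.093). AC093642.1, a noncoding gene that overlaps LINC01237 on the opposite strand, fell in CEM (-2.3 ± 0.4, adjusted p = 0.00093). In REH it was not called (-0.74 ± 0.37, adjusted p = 0.16). LINC01237 also overlaps the coding gene AC131097.2, and without strand the reads of these genes cannot be told apart.

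**Figure D3:**
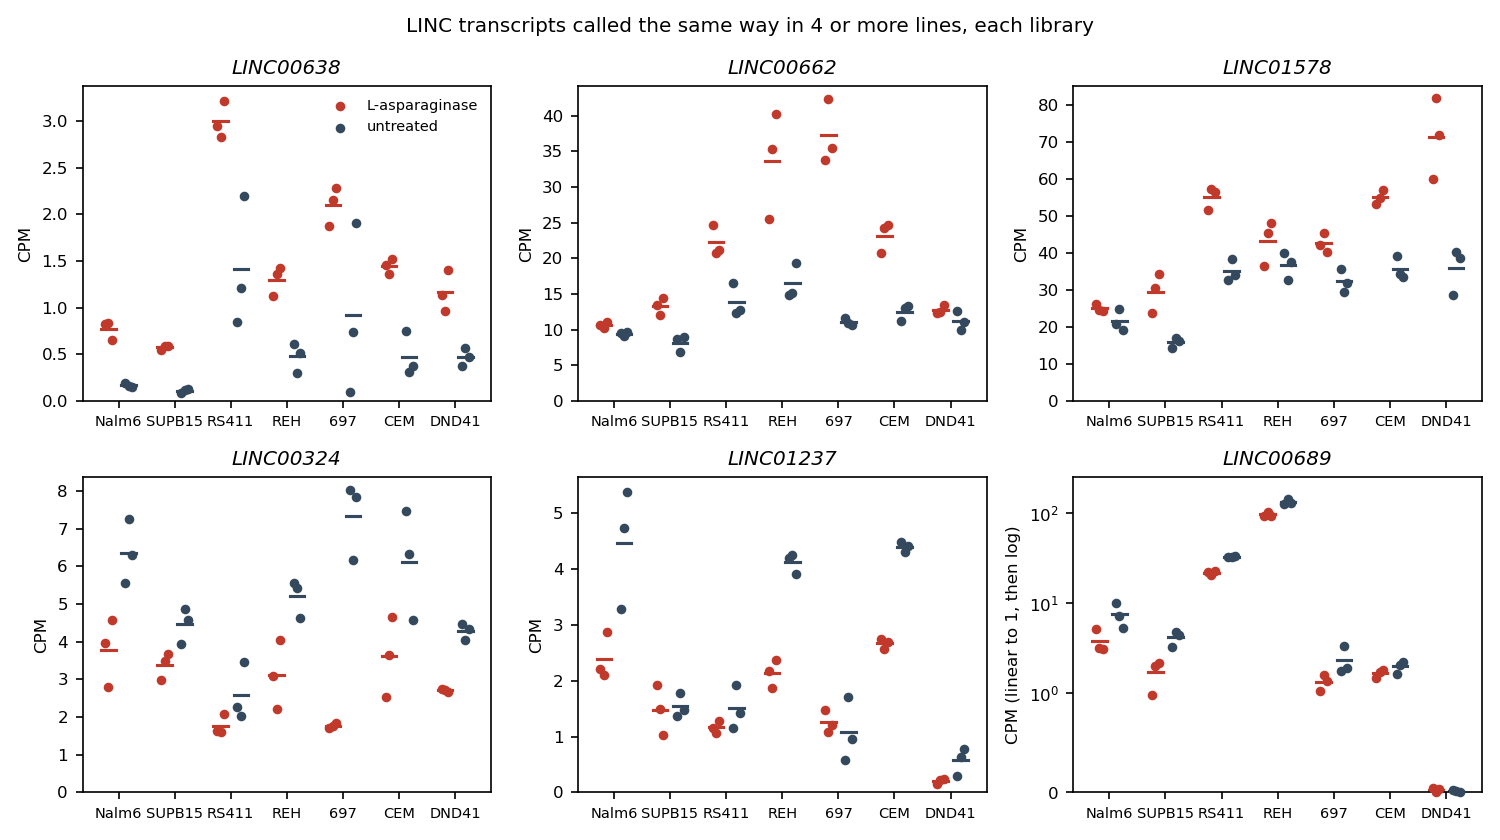
CPM of each library (points) and group mean (line) for the 6 members called the same way in 4 or more lines, with treated libraries left of untreated ones in each line. LINC00638, LINC00662 and LINC01578 lie higher after L-asparaginase in most lines, LINC00662 most in 697 at 37.2 against 11.1 CPM, while LINC00324 lies lower in every line.

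The joint model called 21 members higher and 23 lower in the mean of the 7 lines, 22.4% of 196 against 37.4% of all genes. Without a filter on low counts it called 23.0% of members against 20% of all genes. All genes then took in every gene with any count, while members still met the count floor, so these shares are of unlike sets. For 86 members at least 1 group of 3 libraries was at 0, and for those counted in no library of a line the mean over lines is poorly defined, so their single lines are given. All 86 are among the 196, and 7 of them were called. The share of 22.4% is thus held down by members whose mean could hardly be called. The share of all genes was not taken over genes counted in every group, so the 2 shares do not show that members respond less. LINC01547 was higher by 0.99 ± 0.15 (adjusted p = 1e-06). In CEM it had 9.19, 7.93 and 9.71 CPM treated, against 4.65, 3.85 and 3.27 CPM untreated, which did not overlap (log2 fold change 1.2 ± 0.16, adjusted p = 0.00014), and in DND41 it rose by 1.00 ± 0.21 (adjusted p = 0.0082). LINC00847 was higher by 0.72 ± 0.082 (adjusted p = 4.2e-09). In Nalm6 it had 11.5, 10.6 and 10.1 CPM treated, against 4.85, 6.6 and 6.05 CPM untreated, again with no overlap (0.91 ± 0.16, adjusted p = 0.0032). HEIH, which overlaps LINC00847 on the opposite strand, also rose in Nalm6 (0.43 ± 0.11, adjusted p = 0.022), and without strand the reads of the 2 cannot be told apart. LINC00959, which RefSeq lists as the coding gene C10orf143, was higher by 0.71 ± 0.10 (adjusted p = 5.2e-07), LINC01366 by 0.59 ± 0.12 (adjusted p = 0.00014) and LINC00863 by 0.42 ± 0.086 (adjusted p = 0.00013). The mean of LINC00654 was 1.21 ± 0.27 (adjusted p = 0.00034) though it was called in no line, and it was not called without treated DND41 library C, where 9 of its 9 treated DND41 counts lay. In CEM, where it averaged 6.54 ± 0.374 CPM untreated, its joint log2 fold change was -0.03. In the other untreated lines it averaged at most 0.391 CPM. The mean of LINC01389, 0.99 ± 0.23 (adjusted p = 0.00064), rests on RS411, where it had 6, 11 and 6 counts treated and 0 in each untreated library, and no single line was called.

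Among the falls in the mean, LINC00494 was lower in 6 of 7 lines, by 1.47 ± 0.40 on the log2 scale (log2 fold change -1.47, adjusted p = 0.0043). In Nalm6 it had 0.262, 0.173 and 0.28 CPM treated, against 2.40, 2.46 and 1.76 CPM untreated, an 8.90-fold fall (-3.15 ± 0.33, adjusted p = 0.00036). Its level in SUPB15 was 8.62, 6.37 and 5.52 CPM treated, against 18.7, 15.9 and 14.1 CPM untreated (-1.27 ± 0.21, adjusted p = 0.0032). Both lines had groups apart. Without untreated RS411 library B, which holds the 1 untreated count of that line, the mean was not called. LINC00641 fell by 0.85 ± 0.12 in the mean (adjusted p = 2.1e-07). Its level in SUPB15 was 9.83, 5.19 and 5.61 CPM treated, against 31.4, 19.1 and 15.4 CPM untreated (-1.71 ± 0.33, adjusted p = 0.0065), and in REH its log2 fold change was 0.06 ± 0.23. Its first untreated library was the highest of the group in all 7 lines. LINC01126 fell by 0.81 ± 0.16 (adjusted p = 8e-05) and LINC00977 by 0.58 ± 0.094 (adjusted p = 4.2e-06). In CEM, LINC00977 had 28.4, 25.0 and 21.6 CPM treated, against 38.1, 37.4 and 36.6 CPM untreated (-0.57 ± 0.10, adjusted p = 0.0013), while in DND41 it averaged 36.0 ± 3.79 CPM treated and 37.6 ± 5.73 CPM untreated (-0.04 ± 0.15, adjusted p = 0.87).

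**Figure D4:**
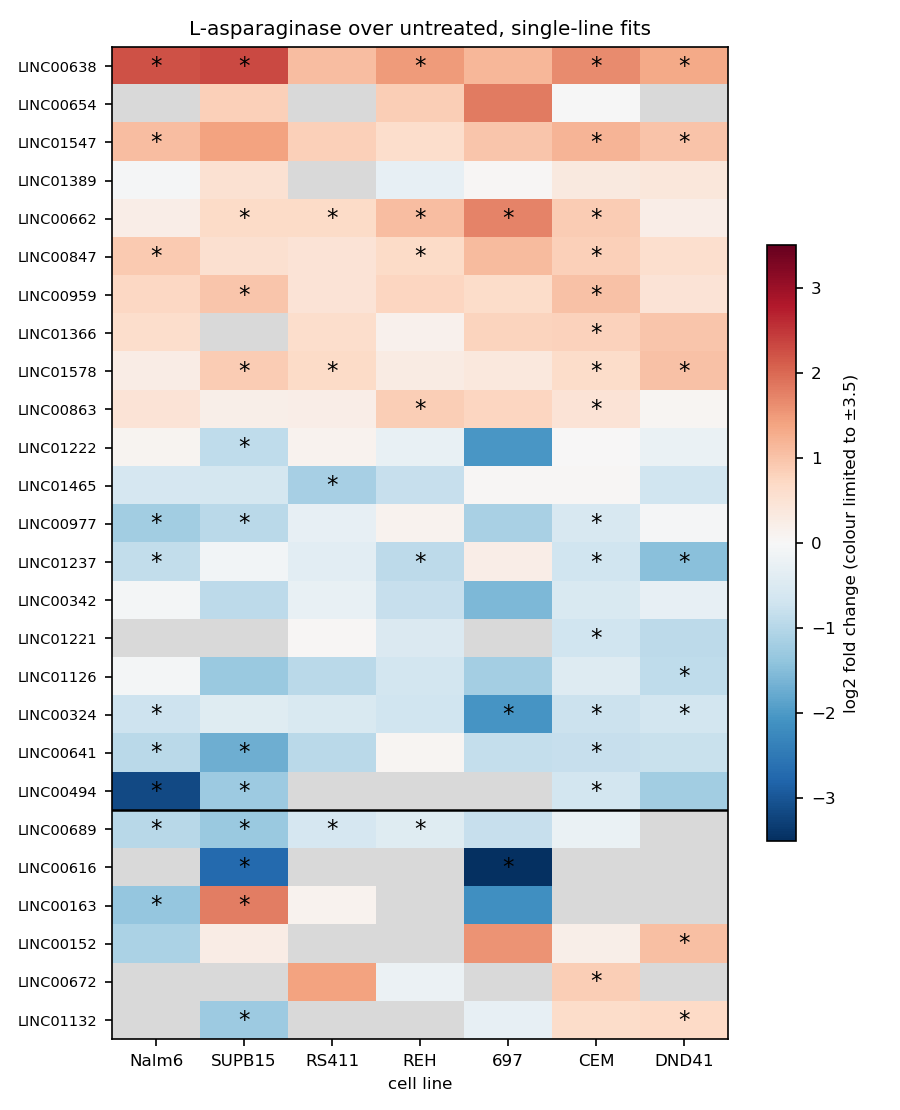
Log2 fold change of L-asparaginase over untreated cells in single-line fits, for members called in the mean over lines (above the rule, ordered by the mean) and 6 further members (below it). Stars mark an adjusted p under 0.05 and grey marks lines where the member was too low to test. LINC00638 is red in every line, LINC00324 blue in every line, and LINC00163 is blue in Nalm6 and red in SUPB15.

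Lines differed in the response of 24 members by the interaction test over all 42 libraries, 12.2% against 19.4% of all genes. LINC00163 changed in opposite directions. Its level in SUPB15 was 2.66, 3.17 and 3.18 CPM treated, against 0.495, 1.39 and 0.694 CPM untreated (log2 fold change 1.78 ± 0.35, adjusted p = 0.0072). In Nalm6 it had 9.89, 8.50 and 7.82 CPM treated, against 17.7, 30.2 and 20.8 CPM untreated (-1.36 ± 0.19, adjusted p = 0.0014). Groups did not overlap in either line. RS411, with the highest level, had 55.2 ± 5.31 CPM treated and 51.2 ± 7.0 CPM untreated, a difference within the spread (0.12 ± 0.13, adjusted p = 0.59). The interaction adjusted p of LINC00163 was 0.0012. In REH it had 10 counts in treated library A and 0 in the other 2 treated libraries, and LINC01108, which like it is highest in RS411, had 17 counts in that library and 0 in the other 5 of REH. The part of other cells in that library was not tested.

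LINC00152 had 31.5, 41.2 and 44.5 CPM in treated DND41, against 18.1, 19.3 and 20 CPM in untreated DND41, with no overlap (log2 fold change 1.06 ± 0.15, adjusted p = 0.0015). In CEM, the other T-lineage line, it had 3.66 ± 0.847 CPM treated and 3.2 ± 0.825 CPM untreated (0.20 ± 0.22, adjusted p = 0.52). The lines differed (interaction adjusted p = 0.0097), but this test takes in all lines and does not compare DND41 with CEM alone. Joint log2 fold changes of LINC00152 ran from -2.27 in REH to 1.64 in 697, with 1.03 in DND41. Its mean untreated level was only 0.117 CPM in REH and 0.34 CPM in 697. LINC00659 had 33, 116 and 77 counts in treated DND41, against 0, 24 and 22 in untreated DND41 (2.56 ± 0.74, adjusted p = 0.029). In REH it had 0.594, 0.916 and 0.695 CPM treated, against 2.18, 1.69 and 1.79 CPM untreated (-1.27 ± 0.29, adjusted p = 0.0091). Groups were apart in both lines and moved in opposite directions, with an interaction adjusted p of 0.0048. The DND41 call of LINC00659 was lost with DESeq2 (adjusted p = 0.13) and without untreated B or C or treated B or C (0.066 to 0.092).

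LINC00616, a transcript counted in B-lineage lines and at 0 in all 12 libraries of CEM and DND41, had the deepest falls. Its level in SUPB15 was 4.27, 3.03 and 2.90 CPM treated, against 23.6, 20.1 and 22.7 CPM untreated, a 6.65-fold fall (log2 fold change -2.73 ± 0.19, adjusted p = 0.00017). In 697 it had 2, 4 and 1 counts treated, against 137, 198 and 167 counts untreated, or 0.0595 ± 0.0443 CPM and 4.95 ± 2.18 CPM, an 86.0-fold fall (-6.43 ± 0.64, adjusted p = 0.011). Groups were far apart in both lines. The SUPB15 call held in all 12 alternatives, and the 697 call was lost without any 1 treated library (adjusted p 0.074 to 0.087). Its response differed between lines (interaction adjusted p = 0.01, and 0.063 without treated 697 library 3).

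Next to LINC00616, on the same strand and upstream of it, lies SLC7A11, the cystine and glutamate exchanger, which is a known ATF4 target. SLC7A11 went the other way in both lines. Its level in SUPB15 was 272, 270 and 272 CPM treated, against 65.9, 72.3 and 88.8 CPM untreated (log2 fold change 1.82 ± 0.13, adjusted p = 0.00021). In 697 it had 156, 202 and 176 CPM treated, against 26.7, 42.9 and 19 CPM untreated (2.58 ± 0.31, adjusted p = 0.017). It rose in the other 5 lines too, where LINC00616 was too low to test. SLC7A11-AS1, which overlaps LINC00616 on the opposite strand in GENCODE, had at most 0.371 CPM in any library and was tested in no line. The coding gene on the far side, PCDH18, was not called in either line (log2 fold changes -0.14 ± 0.27 and 1.31 ± 0.31).

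LINC00299 showed the reverse arrangement. It is among the members that reached the count floor only through treated libraries. Its rise thus helped to make it a member, and its values are a description. In REH it had 2.04, 2.53 and 1.52 CPM treated, against 0.648, 0.304 and 0.234 CPM untreated, a 5.46-fold rise (log2 fold change 2.45 ± 0.41, adjusted p = 0.0018). In Nalm6 it had 0.899, 0.751 and 0.583 CPM treated, against 0.167, 0.123 and 0.0549 CPM untreated (2.81 ± 0.46, adjusted p = 0.0026), and in SUPB15 it rose by 1.38 ± 0.36 (adjusted p = 0.022). Groups did not overlap in these lines. In RS411, where it was too low to test, it had 4, 13 and 4 counts treated, against 1, 2 and 1 counts untreated. The next coding gene is ID2, an inhibitor of basic helix-loop-helix transcription factors. In REH, ID2 had 29.7, 28.5 and 21.7 CPM treated, against 137, 157 and 160 CPM untreated (-2.47 ± 0.13, adjusted p = 4.4e-06). ID2 fell by 2.97 ± 0.12 in Nalm6 (adjusted p = 1.2e-06) and by 1.31 ± 0.28 in SUPB15 (adjusted p = 0.011). ID2 was also called lower in RS411 (-1.84 ± 0.34, adjusted p = 0.013) and DND41 (-1.24 ± 0.36, adjusted p = 0.031). It was not called in 697 (-1.66 ± 0.44, adjusted p = 0.099) or CEM (-0.44 ± 0.18, adjusted p = 0.081). LINC00299 was tested in none of these last lines. On the other side of LINC00299, RNF144A was called lower in REH (-0.57 ± 0.15) and higher in DND41 (0.49 ± 0.15), and not called in SUPB15.

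**Figure D5:**
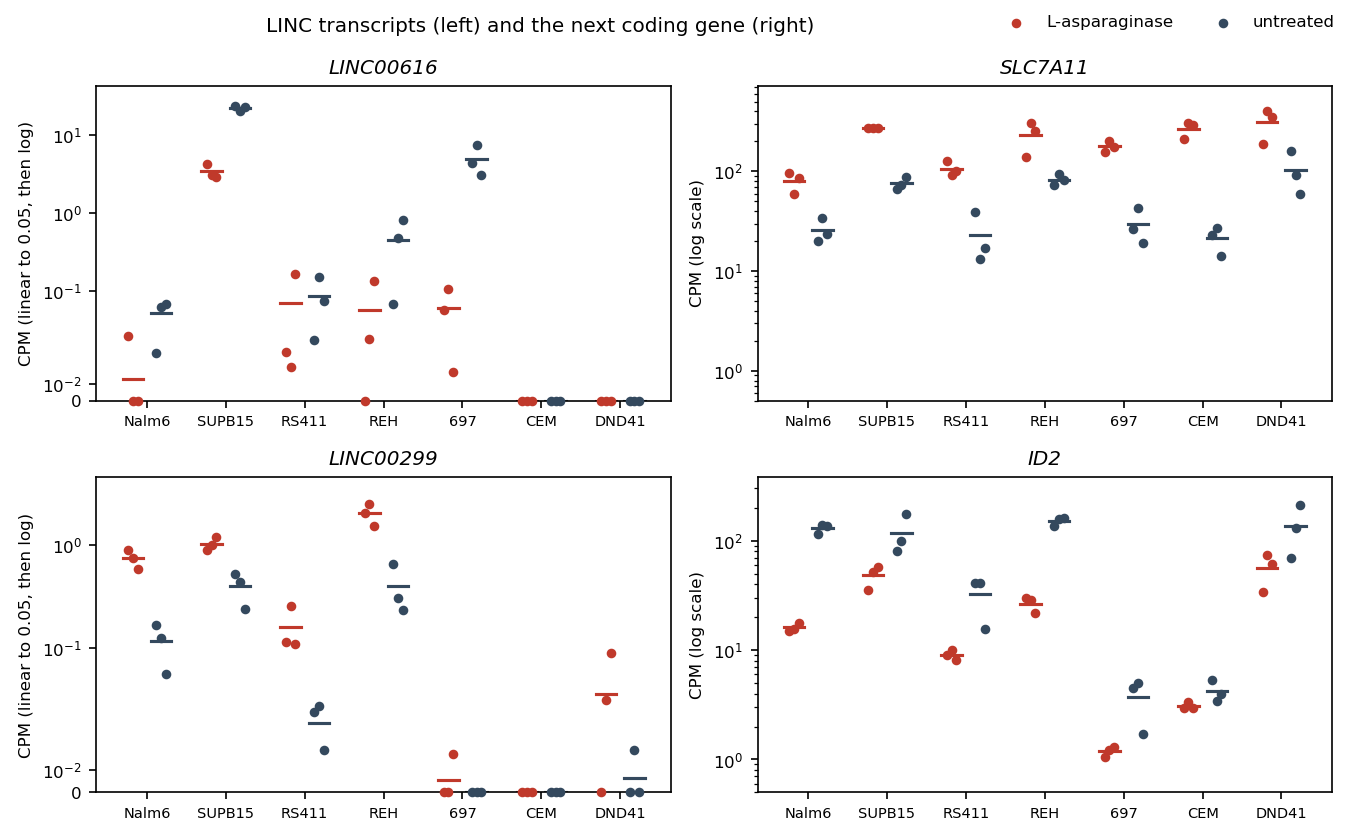
CPM of each library (points) and group mean (line) for LINC00616 and SLC7A11 (top) and for LINC00299 and ID2 (bottom), with treated libraries left of untreated ones. In SUPB15 and 697, LINC00616 lies lower and SLC7A11 higher after L-asparaginase, and in Nalm6, SUPB15 and REH, LINC00299 lies higher and ID2 lower.

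These 2 pairs were picked out after the values had been seen. Over the 40 members named for a response, 143 values of a coding neighbour stood beside a call of the member in the same line. The neighbour was called the same way in 28 of them (19.6%), the opposite way in 27 (18.9%) and not called in 88. Single pairs differed. ZBTB42, beside LINC00638, fell in the mean by 0.64 ± 0.11 (adjusted p = 9.3e-06). ZFP62, beside LINC00847, rose by 0.44 ± 0.054 (adjusted p = 2.5e-08), and FAM207A, whose start faces that of LINC01547, rose by 0.30 ± 0.052 (adjusted p = 1.2e-05). CTC1, beside LINC00324, fell by 0.33 ± 0.063 (adjusted p = 5.9e-05) while AURKB on its other side was not called (0.14 ± 0.072, adjusted p = 0.12). ZFP36L2, an mRNA decay factor whose start faces that of LINC01126, fell by 0.38 ± 0.07 in the mean, but in DND41, the 1 line where LINC01126 was called, it was higher by 0.51 ± 0.13 (adjusted p = 0.018). The DND41 call of LINC01126 was lost without untreated B or C or treated B or C (adjusted p 0.055 to 0.068, log2 fold change -0.82 to -0.98), and without the first untreated libraries LINC01126 was lower in 4 lines.

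Of a list of 8 LINC symbols whose transcripts encode small proteins, 4 were members. LINC00998, which encodes the endoplasmic reticulum protein SMIM30, fell by 0.29 ± 0.07 in the mean (adjusted p = 0.001). It had 15.1 CPM on average in treated SUPB15 against 26.2 CPM untreated (log2 fold change -0.81 ± 0.21, adjusted p = 0.022), and also fell in RS411 and CEM. LINC00493, the mitochondrial microprotein gene SMIM26, was lower in DND41, at 9.67 CPM treated against 17.7 CPM untreated (-0.84 ± 0.26, adjusted p = 0.038). LINC01420, which encodes the P-body protein NBDY, was called in no line and in the mean had a log2 fold change of -0.06 ± 0.069. Its untreated level was 0.33 ± 0.0651 CPM in REH, against 18.5 to 41 CPM in the other 6 lines. LINC00116, which encodes the mitochondrial protein mitoregulin (MTLN), was called in no line (mean 0.14 ± 0.12, adjusted p = 0.47). Altogether 11 members are coding genes in the current RefSeq table.

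Of 20 LINC symbols with published names or roles, 13 were members, among them LINC00662, LINC01578, LINC00324, LINC00152 and LINC00299 above. LINC00426 was lower in REH, at 42.8 CPM treated against 63.1 CPM untreated (log2 fold change -0.52 ± 0.11, adjusted p = 0.0056), and higher in CEM, at 21.8 CPM treated against 13.6 CPM untreated (0.69 ± 0.13, adjusted p = 0.0018). It differed between lines (interaction adjusted p = 0.0001). LINC00473, a transcript induced by cyclic AMP signalling, was counted in the T-lineage lines and rose in CEM, at 5.74 CPM treated against 2.56 CPM untreated (1.18 ± 0.17, adjusted p = 0.00032). LINC00665 rose by 0.42 ± 0.13 in CEM (adjusted p = 0.027). LINC00461, LINC00467, LINC00861, LINC00926 and LINC00963 were called in no line.

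Line-restricted members were chosen by their untreated level, so their response in the home line is a description. LINC01262 averaged 3.22 ± 0.188 CPM in treated Nalm6 and 1.78 ± 0.278 CPM in untreated Nalm6 (log2 fold change 0.88 ± 0.21). LINC00237 averaged 4.07 ± 1.41 CPM in treated RS411 and 1.95 ± 0.133 CPM in untreated RS411 (1.08 ± 0.28). Others lay lower after treatment. LINC00885 averaged 6.62 ± 0.397 CPM in treated CEM and 9.24 ± 0.789 CPM in untreated CEM (-0.47 ± 0.12), and LINC01139 averaged 20.5 ± 1.31 CPM in treated SUPB15 and 28.9 ± 3.91 CPM in untreated SUPB15 (-0.52 ± 0.14). LINC01108 averaged 54.5 ± 19.2 CPM in treated RS411 and 73.1 ± 1.97 CPM in untreated RS411, a difference about as large as the treated spread (-0.41 ± 0.23).

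Promoters of 149 members were found in the RefSeq table, and 6 of them, or 4.03%, hold TGATGNAA on either strand, against 3.67% of all 27305 promoters. They belong to LINC00116, LINC01013, LINC01115, LINC01307, LINC01412 and LINC01422. The match in LINC00116, in capitals, starts 213 bases before the start, and this member was not called in any line.
LINC00116 (chr2:110212498-110212797, minus strand): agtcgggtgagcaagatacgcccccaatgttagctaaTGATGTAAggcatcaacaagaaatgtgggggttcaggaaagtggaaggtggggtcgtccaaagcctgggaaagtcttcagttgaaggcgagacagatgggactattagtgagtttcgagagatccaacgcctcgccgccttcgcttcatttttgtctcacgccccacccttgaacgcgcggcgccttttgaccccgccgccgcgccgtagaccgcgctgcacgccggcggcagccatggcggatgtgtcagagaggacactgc
A match is a description of letters and no measure of binding.

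Other long noncoding RNAs, taken from a list of symbols that the rule does not match, gave a setting for these values. Of 12 hosts of small nucleolar RNAs, 9 rose and 2 fell in the mean of the lines, with a median log2 fold change of 0.28. SNHG1 rose by 0.98 ± 0.056 (adjusted p = 5.1e-16), and DANCR fell by 0.54 ± 0.073 (adjusted p = 1.5e-07). LINC00888, a member renamed SNHG33, rose in SUPB15, at 25.0 ± 4.35 CPM treated against 14.8 ± 1.21 CPM untreated (0.74 ± 0.16, adjusted p = 0.0092). Of 13 other long noncoding RNAs tested, 3 rose and 3 fell, among them NEAT1, the scaffold of paraspeckles, which fell by 0.58 ± 0.12 (adjusted p = 0.00013). For KCNQ1OT1, HOTAIR and HOTAIRM1 the mean over lines is poorly defined, with standard errors of 550 to 1200. Of all genes, 17.8% were called higher and 19.6% lower in the mean. The members as a set had a median log2 fold change of -0.01 in the joint model, against -0.015 for all 20983 genes tested.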

How the data were processed

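RNA of 42 libraries was sequenced with standard Illumina chemistry, per the labels' protocols. The authors deposited 1 table of unnormalized read counts by gene symbol for each line, and hg19 is named per the submitters' processing notes. Aligner, counter, annotation and strand setting were not given in the sources used here. Each table holds 26 to 28 symbols turned into dates.

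CPM were computed from these counts with library totals scaled by TMM factors. Each line was fitted on its 6 libraries with edgeR 4.0.16 in R 4.3.3 (limma 3.58.1): TMM, filterByExpr with a minimum count of 10, the quasi-likelihood test, and Benjamini-Hochberg adjustment over all genes tested. A joint fit of 42 libraries gave the mean response and the interaction. Alternatives were RLE scaling, DESeq2 1.42.0, no filter, the replicate block, other floors and left-out libraries. Checks on simulated data found 100% of 4-fold changes per line and 47% to 62% of 2-fold changes, with 1.9% to 5% false calls, and 9.2% false calls in the interaction. In these checks only well counted genes were changed, and the same spread was set for all genes. The rates therefore do not cover members with few counts. The labels call the libraries independent experiments. Same-letter libraries deviated together in SUPB15, RS411, REH, CEM and DND41 (every correlation at least 0.15), and not in Nalm6 and 697.

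Members, lists and the naming rule were chosen with earlier results of these data known. Named were members called in 4 or more lines, those with an average log2 CPM of at least 0 and the largest mean, single-line and line-dependent changes, the top restricted, broad and lineage-separated members, and the 2 lists of known LINC symbols. Names and gene order came from RefSeq (155 members by symbol and 41 by an older one) and GENCODE (190 members). Stromal and myeloid markers had a median of at most 1.54 CPM in every group.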

Additional observations from a re-analysis of the deposited data

Results flagged for a closer look

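The response of the following members differed between lines by the interaction test of the joint edgeR model (6 degrees of freedom, Benjamini-Hochberg adjusted over all genes). The lowest adjusted p was that of LINC00662, at 1.5e-05, which rose by 1.73 ± 0.19 (log2, SE) in 697 and had a value of 0.22 ± 0.13 in Nalm6. LINC00426, at 0.0001, was higher in CEM and lower in SUPB15 and REH. LINC00494, at 0.00025, fell by 3.15 ± 0.33 in Nalm6 and by 0.63 ± 0.20 in CEM. LINC00163, at 0.0012, and LINC00659, at 0.0048, were called in opposite directions in a pair of lines each. LINC00672, at 0.0015, rose in CEM by 0.85 ± 0.22, and in its most abundant line, REH, averaged 8.36 ± 0.618 CPM treated and 9.85 ± 1.42 CPM untreated. LINC01132, at 0.02, was higher in DND41 by 0.71 ± 0.17 and lower in SUPB15 (-1.28 ± 0.41).

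LINC01003, at 0.0039, averaged 2.53 ± 0.385 CPM in treated REH and 5.2 ± 0.949 CPM in untreated REH, while in CEM it averaged 7.17 ± 0.66 CPM treated and 7.83 ± 0.635 CPM untreated. LINC00294, at 0.011, fell in RS411 and SUPB15 (log2 fold changes -0.94 ± 0.19 and -0.54 ± 0.15). LINC01088, at 0.013, fell by 1.65 ± 0.32 in Nalm6. LINC00958, at 0.025, averaged 60.4 ± 1.78 CPM in treated REH and 40.5 ± 5.66 CPM in untreated REH, and in SUPB15 35.0 ± 3.22 CPM treated and 40.8 ± 4.51 CPM untreated. LINC01222, at 0.018, fell by 0.89 ± 0.24 in SUPB15. Of 3 members outside the naming rule, named after their values were seen, LINC01128, at 0.00064, averaged 19.2 ± 1.92 CPM in treated CEM and 13.6 ± 1.75 CPM in untreated CEM, and in SUPB15 9.08 ± 0.626 CPM treated and 15.3 ± 2.66 CPM untreated, both called. LINC01121, at 0.016, and LINC01480, at 0.043, were called in no line. The remaining members were LINC00324 at 0.0047, LINC00998 at 0.0065, LINC00152 at 0.0097, LINC00616 at 0.01, LINC01578 at 0.011, LINC00977 at 0.016, LINC01389 at 0.016, LINC00665 at 0.042 and LINC01237 at 0.043.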

How the results depend on the processing

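Counts of called members moved with single libraries and with the tool. DESeq2 called 20 members in RS411 (11 with edgeR), 16.4% against 19.3% of all genes, 19 in 697 (3 with edgeR), 15.6% against 10.9%, 43 in the interaction (24 with edgeR), 25.3% against 35.1%, and 12 in 4 or more lines (6 with edgeR). Without a filter on low counts RS411 had 17, 9.6% against 8.67% of all genes with any count, a set unlike that of the members. With the replicate block REH had 39, DND41 36 and 697 1. Without the first untreated libraries RS411 had 26, 697 27, the interaction 40, and 14 members were called in 4 or more lines. Without the treated library that held transcripts found in no other library of its line, SUPB15 had 13, RS411 0, and 3 members were called in 4 or more lines. At a share of 90%, 15 members were line-restricted. The cause of these moves was not tested.

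Over single left-out libraries, members called ranged from 0 to 27 in 697, 0 to 26 in RS411, 4 to 25 in DND41, 12 to 21 in Nalm6, 12 to 40 in SUPB15, 16 to 25 in REH and 32 to 46 in CEM. The mean response ranged from 42 to 48, the interaction from 20 to 28, and members in 4 or more lines from 3 to 9. Line-restricted members ranged from 23 to 26, broad members from 37 to 39 and lineage-separated members from 15 to 18. Of 2088 alternatives to 95 named values, 1942 kept their call, 146 lost it and 0 changed sign, though sign was not looked at for interaction values. Mean and interaction values had 48 alternatives each, against 10 to 12 for single-line values, and so weigh most in these counts. Of the 95 values, 54 kept their call in every alternative. Libraries held 15071221 to 77143333 counts, and 31 members were tested in 1 line only. The part of depth in this was not tested.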
